A study of Mus musculus with 8 samples.

Results

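The 4 fibroblast growth factor (FGF) receptor genes *Fgfr1*, *Fgfr2*, *Fgfr3* and *Fgfr4* were examined CpG by CpG in neural precursor cells (NPCs). Members were all listed CpGs from 5 kb before the first transcription start site (TSS) of a gene to its end, in the mouse genome build mm9 with the GENCODE vM1 annotation. This gave 427 of the 757812 CpGs listed in all 8 libraries. *Fgfr1* held 148 of them, *Fgfr2* 106, *Fgfr3* 129 and *Fgfr4* 44. The promoter was taken as −1 kb to +0.5 kb of each TSS of a protein-coding transcript and held 261 of these CpGs. The gene body held 163, and 3 CpGs lay further upstream, all of them in *Fgfr4*. These genes were chosen with the difference in methylation between the knockdown and the control already known, so that this difference is given for them as a description without a test.

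The NPCs came from A2lox.cre mouse embryonic stem (ES) cells that carry a doxycycline-inducible shRNA, either non-targeting (shScr) or against *Tet3* (shTet3), and both groups received doxycycline at 2 µg/ml for 5 days. *Tet3* codes for an enzyme that oxidizes 5-methylcytosine (5mC) to 5-hydroxymethylcytosine (5hmC). DNA of each replicate (100 ng, 2 replicates per shRNA) was cut with MspI and gave a bisulphite (BS) library, which reads 5mC and 5hmC together, and an oxidative bisulphite (oxBS) library, which reads 5mC alone. The labels do not say whether replicates were separate cultures or clones, so the spread between them may be technical. *Tet3* transcripts were not measured in these libraries. DNA of a mixed population was read, so that fewer methylated cells and less methylation per cell cannot be told apart.

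FGF receptors are single-pass membrane proteins with immunoglobulin-like domains outside the cell and a tyrosine kinase inside. Bound FGF, with heparan sulphate or a Klotho protein as co-receptor, brings receptors together, and the kinase then passes the signal through adaptor proteins to the MAP kinase pathway. In neural development FGF signalling is known for maintaining proliferating precursors, and FGF ligands are commonly added to precursor cultures. Promoters in CpG-dense sequence are generally free of methylation, whereas transcribed gene bodies are generally methylated.

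The sequences below are from mm9, 5′ to 3′ on the strand of the gene. The first 4 are shown because they held the most hypomethylated positions of each gene, and the next because its mean level fell the most in *Fgfr1*. Capitals in these 5 mark the CpGs called as hypo-DMPs in the oxBS libraries. Among them, the *Fgfr3* stretch begins at the end of intron 11, and its exons code for part of the tyrosine kinase. The *Fgfr4* stretch begins in an exon for the third immunoglobulin-like domain.
*Fgfr1*, intron 7, chr8:26673116-26673248 (+): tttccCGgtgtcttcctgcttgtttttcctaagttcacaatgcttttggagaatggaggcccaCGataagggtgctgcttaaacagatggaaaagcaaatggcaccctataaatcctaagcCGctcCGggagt
*Fgfr2*, intron 6, chr7:137355390-137355653 (−): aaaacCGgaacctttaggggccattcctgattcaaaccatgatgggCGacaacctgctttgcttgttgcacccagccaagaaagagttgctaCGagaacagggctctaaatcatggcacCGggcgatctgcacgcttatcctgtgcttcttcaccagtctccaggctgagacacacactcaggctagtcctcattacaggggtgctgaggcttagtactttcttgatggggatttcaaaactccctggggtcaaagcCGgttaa
*Fgfr3*, coding exons 12 and 13 with the intron between them, chr5:34076492-34076767 (+): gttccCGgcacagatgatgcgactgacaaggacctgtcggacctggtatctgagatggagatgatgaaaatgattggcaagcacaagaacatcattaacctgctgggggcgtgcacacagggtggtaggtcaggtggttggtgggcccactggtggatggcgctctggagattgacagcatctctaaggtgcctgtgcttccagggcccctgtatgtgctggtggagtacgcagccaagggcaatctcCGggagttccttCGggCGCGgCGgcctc
*Fgfr4*, coding exon 7 and intron 7, chr13:55261412-55261508 (+): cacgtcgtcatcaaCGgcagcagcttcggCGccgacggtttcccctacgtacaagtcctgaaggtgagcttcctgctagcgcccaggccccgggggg
*Fgfr1*, intron 2, chr8:26658658-26658767 (+): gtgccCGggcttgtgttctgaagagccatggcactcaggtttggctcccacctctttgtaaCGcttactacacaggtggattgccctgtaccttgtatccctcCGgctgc
Another 2 stretches lie in the gene bodies and were nearly free of 5mC in the oxBS libraries, and they are shown for contrast. Here the capitals mark every CpG tested. These 2 and the *Fgfr1* stretch in intron 2 were chosen after their values were seen.
*Fgfr1*, between the first and the next TSS, chr8:26625516-26625812 (+): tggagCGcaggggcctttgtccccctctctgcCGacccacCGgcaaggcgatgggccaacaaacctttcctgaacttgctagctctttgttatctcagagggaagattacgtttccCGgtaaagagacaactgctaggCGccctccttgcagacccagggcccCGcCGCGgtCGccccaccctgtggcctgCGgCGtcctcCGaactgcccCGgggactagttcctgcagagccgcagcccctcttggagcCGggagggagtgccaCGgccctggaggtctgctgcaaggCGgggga
*Fgfr2*, intron 1, chr7:137408513-137408726 (−): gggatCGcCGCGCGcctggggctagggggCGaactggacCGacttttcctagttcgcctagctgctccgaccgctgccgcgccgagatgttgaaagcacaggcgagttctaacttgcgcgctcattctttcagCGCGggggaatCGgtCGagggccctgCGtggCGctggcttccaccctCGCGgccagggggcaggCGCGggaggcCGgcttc
The intron stretches with hypo-DMPs held 4 CG in the 133 bases of *Fgfr1* intron 7, 3 in the 110 bases of its intron 2 and 7 in the 264 bases of *Fgfr2* intron 6. The nearly unmethylated stretches held 19 in 297 bases in *Fgfr1* and 26 in 214 bases in *Fgfr2*. The stretches that include exons held 11 in 276 bases in *Fgfr3* and 10 in 97 bases in *Fgfr4*.

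The promoters of the 4 genes were nearly free of 5mC and the bodies were methylated. Over promoter CpGs covered by 10 or more calls in every oxBS library, mean 5mC of *Fgfr1* was 2.19% and 1.68% in shScr against 1.82% and 1.16% in shTet3 (60 CpGs). *Fgfr3* promoter CpGs stood at 1.503% and 2.57% in shScr against 1.35% and 1.76% in shTet3 (85 CpGs). These ranges overlapped for both genes. *Fgfr4* had 4.42% and 7.09% against 5.12% and 4.24% (20 CpGs). A single CpG before its inner TSS, with 88.5% and 100% in shScr against 71.4% and 77.3% in shTet3, raised this mean. Its oxBS coverages were 14 to 26. In BS this CpG did not fall, with 58.3% and 81.2% in shScr against 81.8% and 78.0% in shTet3. Over these tested CpGs *Fgfr2* had the highest promoter mean, 8.70% and 12.0% in shScr against 8.17% and 8.82% in shTet3 (22 of its 50 CpGs), and these groups also overlapped. The *Fgfr2* mean was raised by 3 CpGs around its innermost TSS, which had 63.8% and 85.6% in shScr against 59.9% and 62.9% in shTet3. Its other 19 promoter CpGs had 0% and 0.38% against 0% and 0.29%. All 50 of its promoter CpGs had 10 or more calls in every shTet3 library. Over them its shTet3 oxBS mean was 3.75% and 4.17%, against 5.12% and 4.24% in *Fgfr4*, so its rank depended on which CpGs were covered.

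**Figure D1:**
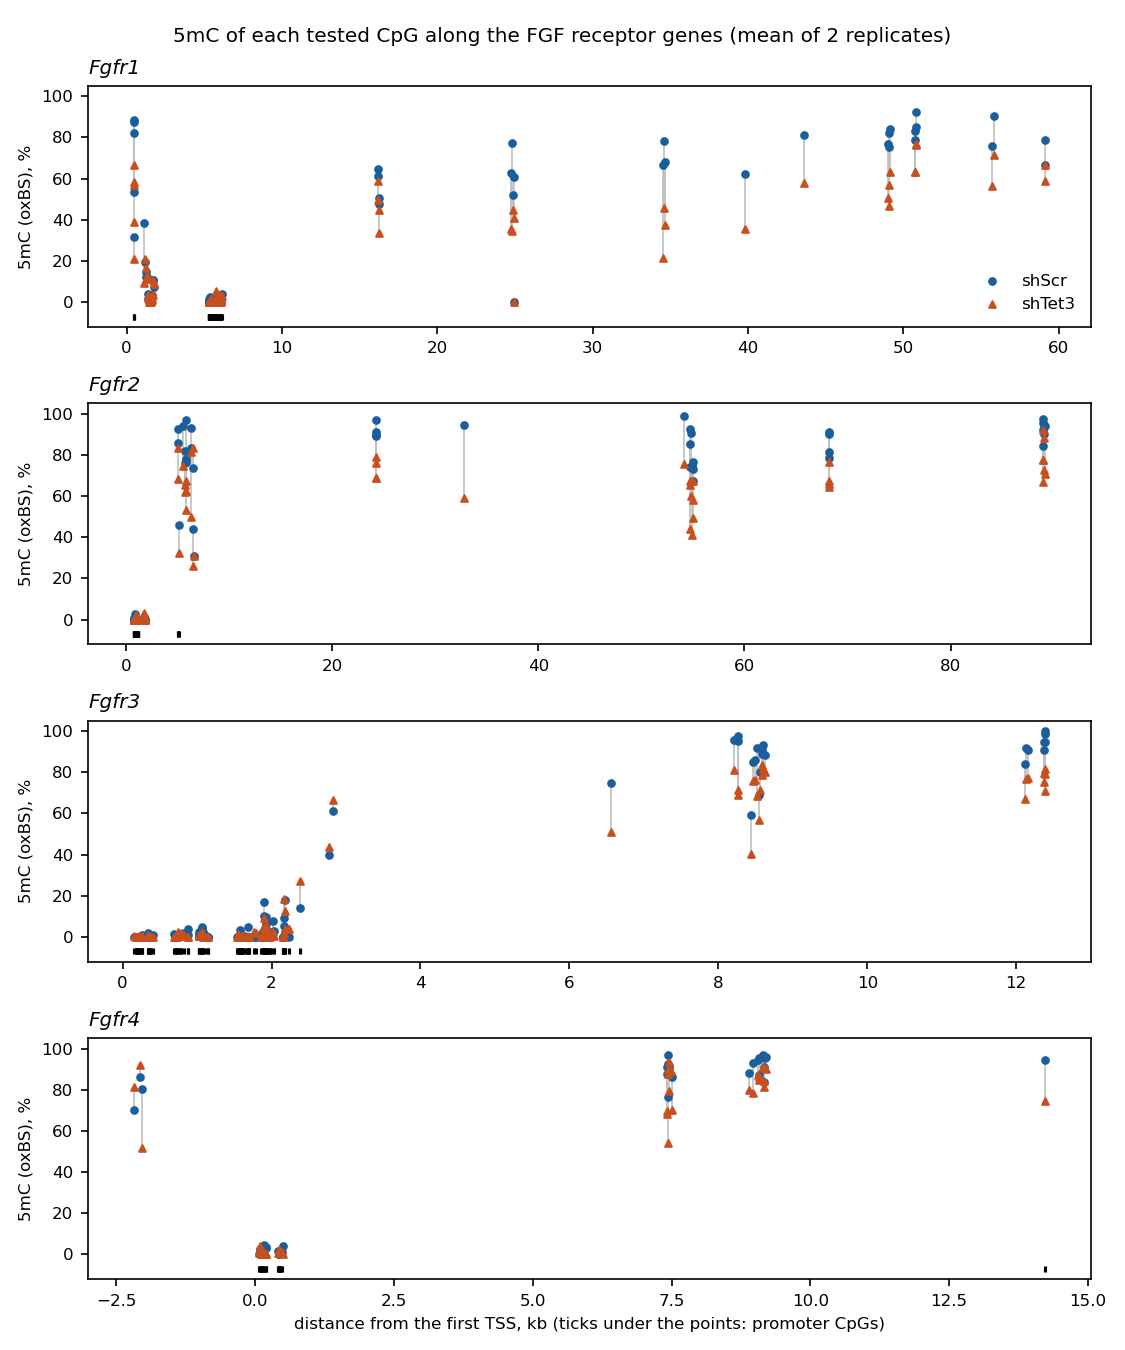
5mC (oxBS level in percent, y axis) of each tested CpG against its distance from the first TSS in kb (x axis), 1 panel per gene, as the mean of 2 shScr replicates (circles) and 2 shTet3 replicates (triangles). Ticks below the points mark promoter CpGs, and most of them lie near 0, whereas most CpGs further into each gene are methylated and lower in shTet3.

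In the bodies mean 5mC was lower in both shTet3 replicates than in both shScr replicates for each of the 4 receptors. *Fgfr1*, a receptor of the early embryo and of neural precursors, had 38.3% and 45.0% in shScr against 30.01% and 29.96% in shTet3, a difference of −11.7 percentage points (41.6% ± 4.72 against 29.99% ± 0.0346, SD, n = 2 each, 53 CpGs). *Fgfr2*, the receptor whose splice forms separate epithelial from mesenchymal signalling, had 54.0% and 59.7% against 42.3% and 46.8% (56.8% ± 4.05 against 44.6% ± 3.21, a difference of −12.3, 53 CpGs). *Fgfr3*, known for restraining bone growth, had 81.1% and 89.0% against 64.5% and 77.3% (85.1% ± 5.59 against 70.9% ± 9.07, a difference of −14.1, 24 CpGs). *Fgfr4*, the receptor of FGF19-type ligands in liver, had 85.1% and 87.4% against 77.8% and 77.6% (86.2% ± 1.59 against 77.7% ± 0.131, a difference of −8.50, 20 CpGs). The groups did not overlap in any of the 4 bodies. Of the 12821 protein-coding genes with tested body CpGs 93.9% had a lower body mean in shTet3, and how many did not overlap was not counted. Without shScr oxBS replicate 2 the *Fgfr1* difference was −7.58, and without shTet3 oxBS replicate 1 the *Fgfr3* difference was −7.72. Over body CpGs of all protein-coding genes oxBS gave 47.7% and 55.8% in shScr against 40.2% and 41.2% in shTet3, a difference of −11.0.

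**Figure D2:**
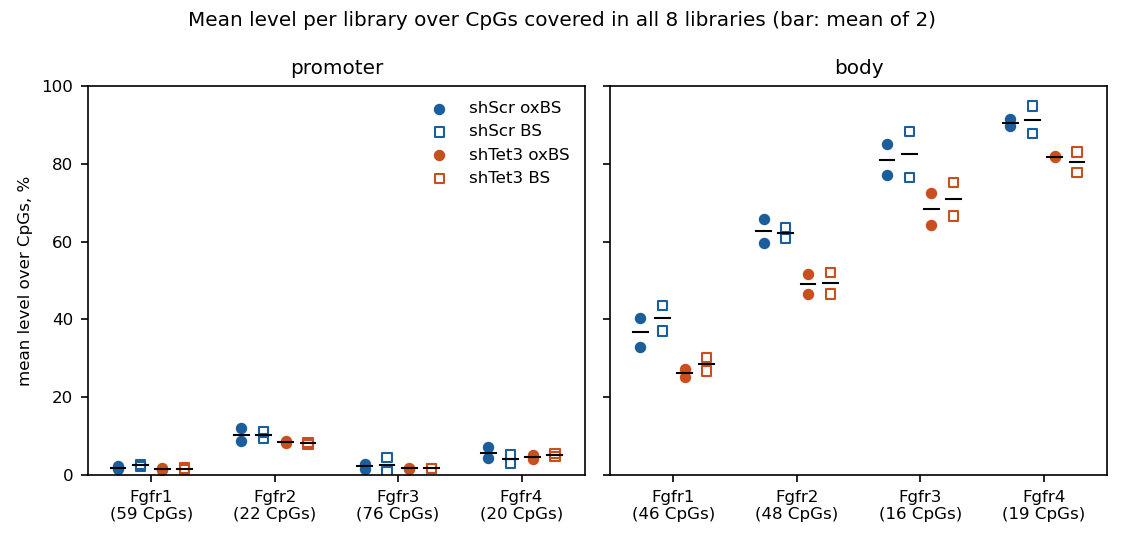
Mean level in percent over the promoter CpGs (left) and body CpGs (right) of each gene that were covered in all 8 libraries, with 1 point per library (filled, oxBS; open, BS; blue, shScr; orange, shTet3) and a bar at the mean of 2. Promoter means stayed at or under 12.0%, and body means rose from *Fgfr1* to *Fgfr4* in every group.

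Over the CpGs covered in all 8 libraries, the body levels kept one order among the genes. *Fgfr4* was highest in the shScr oxBS libraries (89.6% and 91.5%, 19 CpGs), followed by *Fgfr3* (77.1% and 85.1%, 16 CpGs), *Fgfr2* (59.6% and 65.9%, 48 CpGs) and *Fgfr1* (33.0% and 40.3%, 46 CpGs), without overlap between neighbours. In the shScr BS libraries *Fgfr4* (87.7% and 94.9%) and *Fgfr3* (76.5% and 88.4%) overlapped. The bodies of *Fgfr1* and *Fgfr2* include the unmethylated stretches printed above, and the part of these stretches in the order was not tested. The printed *Fgfr1* window had 0.844% and 2.75% in shScr against 1.93% and 1.22% in shTet3 (16 CpGs). The whole stretch around it, 1.15 to 1.77 kb after the first TSS, had 5.37% and 6.75% against 5.75% and 4.04% (24 CpGs), and its CpG nearest the TSS had 45.5% and 31.2% in shScr. The *Fgfr2* stretch in intron 1 had 0% and 0.17% against 0.61% and 0% (17 CpGs). Neither stretch held a differentially methylated position. With body CpGs counted only from 2 kb after the first TSS, an alternative added once values were seen, the difference was −19.7 in *Fgfr1* (26 CpGs) and −18.2 in *Fgfr2* (36 CpGs).

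Differentially methylated positions (DMPs) were called per CpG at a *q* value under 0.01 and a pooled difference over 10 percentage points, and a hypo-DMP is lower in shTet3. In the 4 oxBS libraries 46 of 150 tested body CpGs were hypo-DMPs, where 23.0% of body CpGs of all protein-coding genes were called lower. In the promoters 1 of 187 was called lower, where 1.99% of all promoter CpGs were. No member CpG was called higher by the logistic regression, Fisher's exact test or the F test, with 5 of 340 at an unadjusted p under 0.05 by the regression. Of all CpGs, 0.0814% were called higher and 1.56% were higher at that p. The F test that takes the spread between replicates into account, with 2 residual degrees of freedom per CpG, called no CpG of the 662455 tested, the members included. By it 7 of the 150 body CpGs were at an unadjusted p under 0.05, and the share over all body CpGs was not counted. At 74 body CpGs each shTet3 value was below each shScr value, as at 42.0% of body CpGs of all genes. At 2, both in *Fgfr1*, each was above, as at 2.09% of body CpGs of all genes. Since the genes were chosen on this contrast, nothing is read from these counts.

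By gene, *Fgfr2* held 18 body hypo-DMPs of 53 tested, *Fgfr1* 14 of 53, *Fgfr3* 11 of 24 and *Fgfr4* 3 of 20. All 46 lay at CpGs with over 40% 5mC in shScr. Of these more methylated CpGs, 18 of 35 were called in *Fgfr2*, 14 of 28 in *Fgfr1*, 11 of 23 in *Fgfr3* and 3 of 19 in *Fgfr4*, against 34.7% in the bodies of all genes. Without shScr oxBS replicate 2, or without shTet3 oxBS replicate 1, the 46 hypo-DMPs became 23. Leaving out shScr oxBS replicate 2, whose genome-wide mean of 32.2% stood above the 27.1% of the other control, left 7 hypo-DMPs in *Fgfr1*, 11 in *Fgfr2*, 4 in *Fgfr3* and 1 in *Fgfr4*. Without shTet3 oxBS replicate 1 there were 8, 11, 3 and 1, and without shTet3 oxBS replicate 2 *Fgfr4* also held 1. Among called body CpGs the smallest falls were 13.2, 13.9 and 13.9 points, and among those that were not called the largest were 27.7, 22.2 and 22.2.

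In *Fgfr1* (ENSMUSG00000031565, chr8:26624126-26686186, + strand) the methylated CpGs lay in groups from the first exon to the end. The CpG with the largest fall, at position 26658663 of intron 2, had 55.0% and 78.6% in shScr against 15.8% and 26.7% in shTet3, with coverages of 15 to 28. Its neighbour at 26658719 had 60.9% and 95.2% against 44.8% and 46.7%. Over the stretch of 3 CpGs that holds them the level was 52.7% and 89.2% against 34.8% and 34.9%, and all 3 were hypo-DMPs. Upstream of it in the same intron, position 26648958 had 78.8% and 75.4% in shScr against 22.2% and 46.5% in shTet3. In that stretch of 5 CpGs, 2 were hypo-DMPs. Intron 7 had 71.2% and 88.3% against 53.8% and 54.9%, and all of its 4 CpGs were hypo-DMPs. Shallow coverage at 26658663 left 95% Clopper-Pearson intervals that cover counting error only; over all CpGs named here these were between 4.93 and 58.6 points wide in a single library. Chromosome 8 was covered at 1.15 and 1.19 times the median of the autosomes in the BS and oxBS libraries of shScr replicate 1 and at 0.979 to 1.02 times in the other 6 libraries, and the part of this in the *Fgfr1* values was not tested.

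One CpG of *Fgfr1* stood apart from its neighbours. Position 26649058 in intron 2 read 0% in all 8 libraries, 0 of 299 calls in all, which allows a level of up to 1.0%. It is a CpG in the mm9 reference, and whether the genome of these cells has the same bases there was not tested. The 3 listed CpGs within 100 bp of it had mean 5mC between 52.0% and 77.1% in shScr. This CpG is the single point near 0 far from the start in the plot of *Fgfr1*.

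The start of *Fgfr1* was methylated at one place. The 5 CpGs 0.45 to 0.51 kb after the first TSS, in the exon of the transcript that begins there, had 71.0% and 66.4% in shScr against 49.6% and 47.1% in shTet3. The promoter limit of +0.5 kb runs through this stretch. The 3 CpGs beyond it were hypo-DMPs, and the 2 CpGs within it were not called in the oxBS libraries. With promoters taken from −2 kb to +1 kb the promoters of the 4 genes held 6 hypo-DMPs, not 1. The CpG-dense promoter of *Fgfr1*, 5.33 to 6.12 kb after the first TSS, had 0.65% and 0.41% against 0.65% and 0.36% over 58 CpGs.

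*Fgfr2* (ENSMUSG00000030849, chr7:137305965-137410322, − strand) had hypo-DMPs from intron 2 to exon 13. The largest falls were at 137355395 in intron 6 (57.1% and 92.3% in shScr, 40% and 42.3% in shTet3), at 137377561 in intron 4 (92.0% and 96.6% against 38.5% and 80.0%) and at 137404006 in intron 2 (95.1% and 71.4% against 52.4% and 47.5%). In each of them both shTet3 values were below both shScr values. The stretch in intron 6, which runs beyond the printed window, had 70.6% and 87.8% against 53.9% and 59.3% over 8 CpGs, of which 5 were hypo-DMPs. In coding exon 3 all 4 CpGs lay lower in both shTet3 replicates (90.2% and 93.4% against 66.1% and 79.8%), and 3 were hypo-DMPs. The single promoter hypo-DMP of the family, at 137405250, belonged to the 3 methylated CpGs around the innermost TSS. A readthrough transcript that starts far upstream was left out; with it, the region grew to 1586 CpGs, and *Fgfr2* body 5mC differed by −5.89.

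*Fgfr3* (ENSMUSG00000054252, chr5:34064373-34079716, + strand) is short, and its CpG-dense start took up 101 of its 129 CpGs. Between 2.78 and 2.83 kb after the TSS 2 CpGs had 33.2% and 67.7% in shScr against 61.8% and 48.5% in shTet3, which overlapped. From there to the end 5mC was high. Position 34072636 in coding exon 6 had 95.2% and 100% in shScr against 60.6% and 77.4% in shTet3, and position 34072632, 4 bp away, had 90.5% and 100% against 59.2% and 83.9%. Position 34076758 in coding exon 13 had 100% and 100% against 67.7% and 74.2%. The stretch from the end of intron 11 to kinase exon 13 had 89.2% and 97.0% against 64.8% and 86.9% over 8 CpGs. It held 6 hypo-DMPs, at the end of intron 11 and in exon 13, although shTet3 replicate 2 stayed close to shScr replicate 1. With the TSSs of all annotated transcripts counted, including those that are not protein-coding, 126 of its 129 CpGs were promoter CpGs, the promoters of the 4 genes held 20 hypo-DMPs and the bodies 27, and the difference over the 3 body CpGs left in *Fgfr3* was −4.90.

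**Figure D3:**
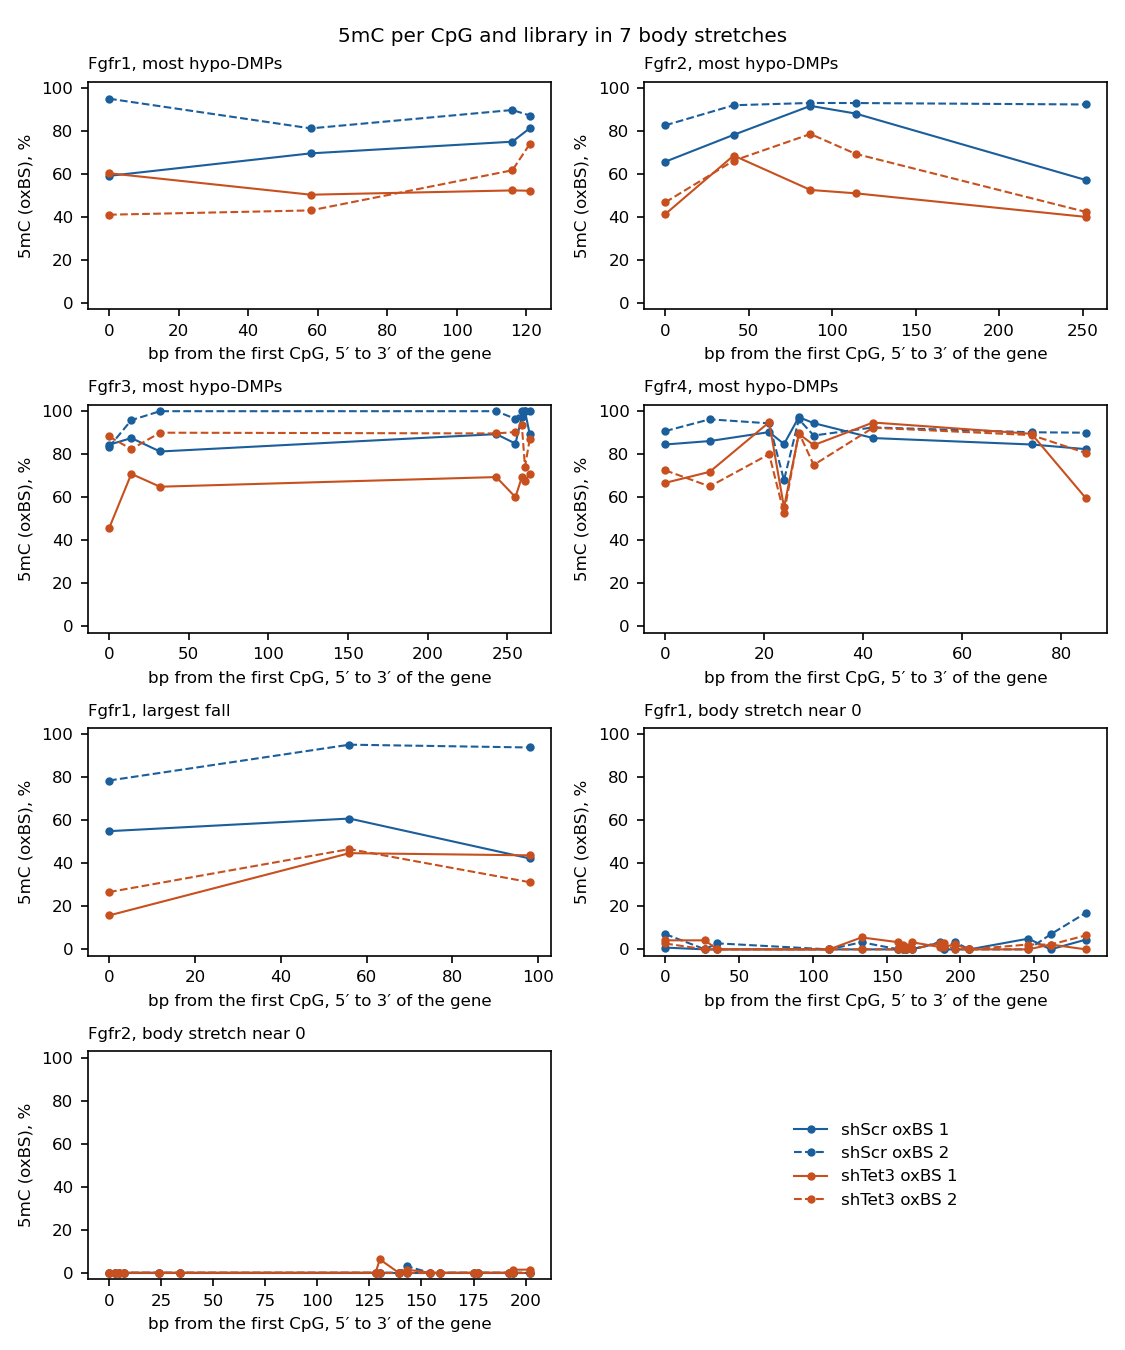
5mC (oxBS level in percent, y axis) of each tested CpG in the 7 stretches printed above against the distance in bp from the first CpG (x axis), with 1 line per oxBS library (blue, shScr; orange, shTet3; solid, replicate 1; dashed, replicate 2). In the *Fgfr1* intron 2 stretch the mean is 34.8% and 34.9% in the shTet3 libraries, and in the last 2 stretches no value is above 17.0%.

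*Fgfr4* (ENSMUSG00000005320, chr13:55254001-55270120, + strand) had the highest body mean and, in oxBS, the fewest body hypo-DMPs. In BS, however, 9 of its 19 body CpGs were called lower, more than in *Fgfr3*. Position 55261441 in coding exon 7 had 84.7% and 67.9% in shScr against 55.3% and 52.5% in shTet3. Position 55261426, 15 bp before it, had 86.1% and 96.2% against 71.8% and 65.0%. Position 55262963 in intron 10 had 89.6% and 95.9% against 75.3% and 81.9%. The exon 7 stretch as a whole had 88.0% and 89.6% against 78.4% and 77.4% over 9 CpGs. The 3 CpGs upstream had 76.0% and 82.1% against 73.8% and 75.9%, and none of them was called.

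The BS libraries of the same DNA gave bodies of like difference, as a second reading of the same samples and not as independent evidence. In the bodies BS gave 34.5% and 41.8% in shScr against 29.2% and 25.0% in shTet3 for *Fgfr1* (50 CpGs), and 60.9% and 63.6% against 46.5% and 52.1% for *Fgfr2* (48 CpGs). *Fgfr3* had 75.3% and 86.4% against 64.7% and 73.4% (18 CpGs), and *Fgfr4* had 87.7% and 94.9% against 77.8% and 83.0% (19 CpGs). The groups did not overlap in any body. Nor did they over body CpGs of all protein-coding genes, with 47.4% and 55.2% in shScr against 39.7% and 40.9% in shTet3. Of the 135 body CpGs tested, 37 were called lower, where 23.5% of body CpGs of all genes were. They were 11 in *Fgfr1*, 14 in *Fgfr2*, 3 in *Fgfr3* and 9 in *Fgfr4*. In the promoters 3 of 205 were called lower, where 1.86% of all promoter CpGs were, and 2 of them were the CpGs just within the promoter limit of *Fgfr1*. No member CpG was called higher in BS by the regression or by the F test (10 of 342 at an unadjusted p under 0.05 by the regression, 1.44% of all CpGs), and 0.0621% of all CpGs were. Without shTet3 BS replicate 1 the 37 body calls became 16, and without shScr BS replicate 2 they became 23.

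At single CpGs both readings often called different positions. Of the 129 body CpGs tested in both, 39 were hypo-DMPs in oxBS, 37 in BS and 17 in both, 43.6% of the first and 45.9% of the second. The same overlap was not counted over the bodies of all genes, so it is not known to be particular to the receptors. In *Fgfr1* 9 of 13 oxBS hypo-DMPs were also called in BS, in *Fgfr2* 7 of 18, in *Fgfr3* 1 of 5 and in *Fgfr4* none of 3. The pooled BS difference was below 0 at 38 of the 39. The *Fgfr3* stretch from the end of intron 11 to exon 13 was not tested in BS because its coverage in shScr BS replicate 2 was under 10.

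**Figure D4:**
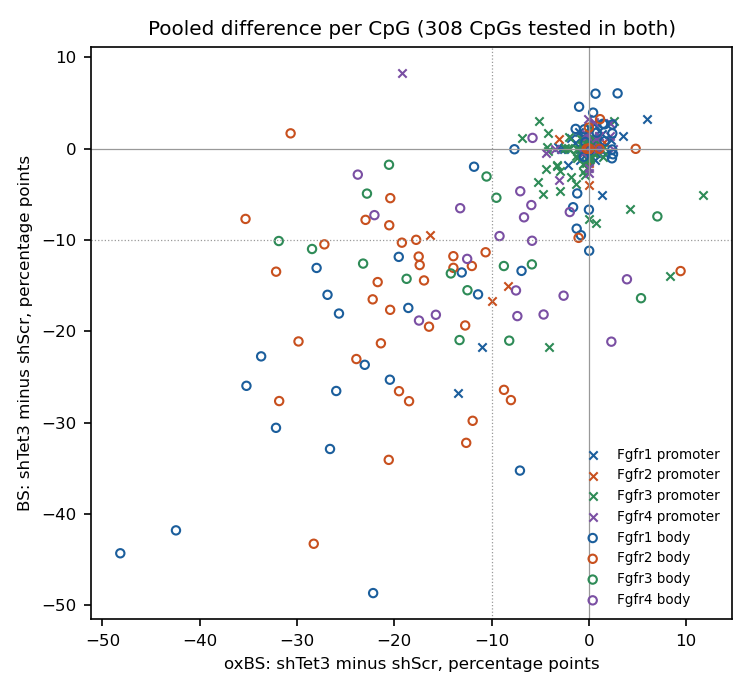
Pooled difference of shTet3 minus shScr in percentage points in the oxBS libraries (x axis) against that in the BS libraries (y axis) for the 308 CpGs tested in both, with 1 colour per gene, crosses for promoter and circles for body CpGs, and dotted lines at −10. Most promoter CpGs lie near 0, and many body CpGs spread into the lower left, with the largest falls in *Fgfr1*.

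Levels in the paired BS and oxBS libraries were then compared within each shRNA, which asks where 5hmC could be read in the receptor genes. This contrast was not used to choose the genes. It shares the oxBS libraries with the contrast that was, so it is not independent of that choice. In shScr no member CpG of the 310 tested was called with BS above oxBS, by the regression, Fisher's exact test or the F test. That was 0 of 131 in the bodies and 0 of 177 in the promoters, where 0.576% of body CpGs and 0.0850% of promoter CpGs of all genes were called. At an unadjusted p under 0.05 by the regression 29 member CpGs had BS above and 15 had BS below oxBS, where 7.25% and 5.39% of all CpGs did. In shTet3 none of the 369 tested was called in either direction by any of these tests, with 19 above and 10 below at an unadjusted p under 0.05. Of all CpGs, 0.0239% were called above and 0.0141% below, and 5.13% and 3.88% were so at that p. With a coverage minimum of 20 there were 2 calls above in shScr. There were 8 such calls without shScr oxBS replicate 2, and 5 and 3 without shScr BS replicates 1 and 2. Over all CpGs the calls above also rose, from 2086 of 632977 to 20055 of 644017 without shScr oxBS replicate 2. Without shScr BS replicates 1 and 2 they were 11649 of 640439 and 3546 of 662902.

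The only called CpG had BS below oxBS, which 5hmC cannot give. It lay at 137404531 in intron 2 of *Fgfr2* and had 96.9% and 96.8% in the shScr oxBS libraries (coverages of 65 and 31) and 66.7% and 81.2% in the BS libraries (24 and 16), a pooled difference of −24.4 (*q* = 0.00969, logistic regression with Benjamini-Hochberg adjustment, lower in 2 of 2 pairs). It was 1 of 131 body CpGs, and 0.286% of the body CpGs of all genes were called in this direction. It was not called by Fisher's exact test, by the F test, or at coverage minimums of 5 and 20. Without shScr oxBS or BS replicate 1 there was no call below oxBS, and without replicate 2 of either there were 2 and 3 such CpGs. Over all CpGs the calls below rose from 1076 of 632977 to 3360 of 644017 and 11609 of 662902 without replicate 2 of oxBS and of BS. In shTet3 the same CpG had 62.2% and 72.4% in oxBS and 69.8% and 84.2% in BS, and it was one of the hypo-DMPs of the oxBS comparison.

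Over whole bodies BS minus oxBS was small and varied in sign. Of the 4 receptors only *Fgfr1* had BS above oxBS in all 4 pairs. The differences were 4.01 and 3.20 points in shScr (46 CpGs) and 4.65 and 1.09 in shTet3 (54 CpGs). The two-sided exact permutation test gave p = 0.667 in shScr and p = 0.333 in shTet3, where 0.333 is the smallest that 2 libraries against 2 allow. This test does not use the pairs of libraries. An exact sign-flip test over the 2 pairs, added once values were seen, gave p = 0.5 in both, the smallest it can give. Without shScr oxBS replicate 1 the *Fgfr1* difference in shScr was −0.0649, and with CpGs weighted by their reads it was −7.61. *Fgfr2* had 1.27 and −2.22 in shScr, against −0.159 and 0.546 in shTet3. *Fgfr3* had −0.520 and 3.29 in shScr, against 0.244 and −2.72 in shTet3. *Fgfr4* had −1.78 and 2.78 in shScr, against −4.09 and 1.32 in shTet3. The sign differed between replicates in all of these 3 genes. Over body CpGs of all genes BS minus oxBS was 0.596 in shScr and 0.448 in shTet3. There too BS lay above oxBS in all 4 pairs. It had 47.8% and 55.6% against 47.1% and 55.1% in shScr, and 39.9% and 41.1% against 39.5% and 40.6% in shTet3. How many single genes had this sign in all 4 pairs was not counted.

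**Figure D5:**
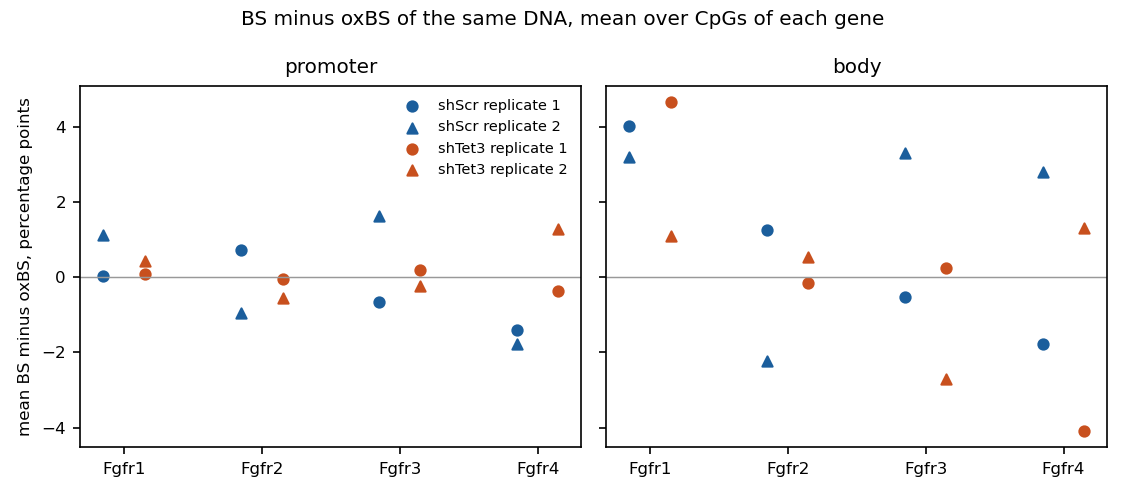
Mean BS minus oxBS in percentage points (y axis) over the promoter CpGs (left) and body CpGs (right) of each gene, with 1 point per pair of libraries of the same DNA (blue, shScr; orange, shTet3; circles, replicate 1; triangles, replicate 2). All 4 *Fgfr1* body points lie above 0, and the other bodies have points on both sides of it.

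The other genes of the FGF pathway were counted in the same way. Of a list of 57 such genes 56 were matched by name. Their promoters held 13 hypo-DMPs among 1601 tested CpGs (0.812%, against the 1.99% of all promoter CpGs) and no hyper-DMP. Promoter means of the 49 genes with tested CpGs differed by −21.5 to 2.03 points, with a median of −0.25 against −0.13 over all protein-coding genes. The −21.5 was that of *L1cam*, which had 1 tested promoter CpG. Its groups overlapped, with 30% and 95.2% in shScr against 59.1% and 23.1% in shTet3. *Flrt2*, a membrane protein that binds FGF receptors, held 5 of the 13, with promoter means of 6.76% and 8.81% in shScr against 4.37% and 5.48% in shTet3. *Fgf10*, a ligand of *Fgfr2*, held 2, with 0.56% and 7.86% against 2.39% and 3.88%. The co-receptors *Kl* and *Klb*, the syndecan *Sdc3*, the ligands *Fgf4* and *Fgf20* and the inhibitor *Spry4* held 1 each. The bodies of the list held 134 hypo-DMPs among 925 CpGs (14.5%, against the 23.0% of body CpGs of all genes) and 2 hyper-DMPs, 1 each in the inhibitors *Spry4* and *Spred2*. Of the 50 genes with tested body CpGs 47 had a lower mean in shTet3, with a median difference of −8.94 points. Over all 12821 protein-coding genes with such CpGs 93.9% were lower, with a median of −12.8. Without shTet3 oxBS replicate 1 there were 69 body hypo-DMPs, and without shScr oxBS replicate 2 there were 76.

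By role, all 8 adaptors and effectors had lower bodies in shTet3, with a median difference of −8.55 points and 30 hypo-DMPs of 191 CpGs (15.7%). Co-receptors and partners had 24 of 132 (18.2%), with 9 of 10 genes lower. Secreted ligands had 28 of 224 (12.5%), with 14 of 15 genes lower. Inhibitors had 40 of 264 (15.2%), intracellular homologous factors 7 of 51 (13.7%) and target transcription factors 5 of 53 (9.43%). The share was below the 23.0% of all genes in each role. In the bodies of all genes 34.7% of CpGs with over 40% 5mC in shScr were called, against 0.01% of those under 10%. The list was not split in this way, so these shares do not compare CpGs of like level. Its shScr oxBS body means varied widely, for example 3.42% and 4.78% in *Spry2* and 84.8% and 91.6% in *Ptpn11*. The decoy receptor *Fgfrl1*, which lacks a kinase, was unmethylated also in its body, with 0.41% and 1.53% in shScr against 0.88% and 2.36% in shTet3 over 10 CpGs, in contrast to the bodies of the 4 signalling receptors.

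The bodies most like those of the receptors over the 8 libraries, by root mean square difference of body means among 3172 genes with at least 20 body CpGs, belonged to other kinds of genes. Nearest to *Fgfr1* were *Htr1d* (1.67 points), *Grid1* and *1810041L15Rik*. Nearest to *Fgfr2* were *Ptprm* (1.11), *Nedd4l* and *8030462N17Rik*. *Fgfr3* had *Fam125b* (1.47), *H2afy* and *Srgap1*, and *Fgfr4* had *Eif3d* (2.30), *Zfp668* and *Zfp629*. The median gene lay 24.8 points from *Fgfr1* and 41.7 from *Fgfr4*.

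Depth was similar among the libraries, with 42516767 to 61865967 calls and a median coverage of 43 to 54. The median coverage of the *Fgfr2* CpGs was lower, at 20 to 45, and that of the *Fgfr3* CpGs was 47 to 80. Marker promoters are given by the median over genes in each library, which can fall on a different gene from library to library. For neural precursor genes it was 6.57% and 5.36% in shScr against 3.75% and 4.76% in shTet3 (5 of 6 genes covered, 1 lower in both shTet3 libraries). Among them *Pax6* had 41.1% and 24.5% against 28.0% and 27.8%. For pluripotency genes the median was 29.7% and 44.0% against 18.5% and 25.8% (7 of 10 genes, 4 lower in both). In this order it fell on *Zfp42*, *Tdgf1* (1 CpG), *Tbx3* and *Tdgf1*, so its fall is not that of a single gene. *Zfp42* overlapped, with 29.7% and 57.5% against 38.5% and 32.2%. *Pou5f1* overlapped as well, with 42.3% and 44.5% against 39.4% and 48.0%. The feeder fibroblast gene *Twist2*, the one covered of 6, had 31.3% and 43.4% against 30.3% and 28.4%. Their part in the receptor values was not tested.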

How the data were processed

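BS and oxBS libraries of NPCs with shScr or shTet3 were analysed, 2 replicates each, grouped by their labels. According to the labels and methods, the authors trimmed reads with Trim Galore, aligned them with Bismark to mm9 and used methylKit; further versions are not given in the sources used here. Per CpG and library they deposited the coverage (a raw count of calls, not normalized) and what percent of them were C or T. Percent times coverage was whole to within 1.16e-10, so methylated counts were recovered from these columns. CpGs listed in all 8 libraries were used, whose coverage is 5 or more.

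CpGs with 10 or more calls in each of the 4 libraries compared were tested by logistic regression without overdispersion (likelihood ratio test), with Benjamini-Hochberg adjustment over all CpGs, a *q* value under 0.01 and a pooled difference over 10 points (Python 3.11.15, NumPy 2.4.6, SciPy 1.17.1). The tests were tested on simulated data. Since this test ignores the spread between replicates, its calls cover counting error only, and PCR copies are not independent molecules. Mean levels were unweighted over CpGs. TSSs were those of protein-coding transcripts without the readthrough transcript of *Fgfr2*. Members and gene lists were chosen with earlier results of these data known. Named were, per gene, the 3 hypo-DMPs with the largest fall and both shTet3 below both shScr replicates, every hyper-DMP, the stretch (neighbours within 300 bp) with the most hypo-DMPs, every CpG called between BS and oxBS, the pathway genes with promoter hypo-DMPs, and the 3 genes nearest in body level. Alternatives were other coverage limits, tests, weights, promoters and TSSs, the replicate block, and leaving out each library.

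Per the protocol in the labels, each DNA sample was divided between an oxBS and a BS library. The libraries were matched by the number in their titles, and their replicate deviations correlated at 0.508 in shScr and 0.246 in shTet3 over all CpGs. Between shScr and shTet3 the numbers did not pair the libraries (−0.0361 in oxBS and −0.0282 in BS).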

Additional observations from a re-analysis of the deposited data

How the results depend on the processing

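The body mean of each receptor stayed lower in shTet3 under every alternative tried. With TSSs of all transcripts the *Fgfr3* difference rested on 3 CpGs and was smaller than the spread between replicates. It was −4.90 in oxBS (pooled SD 14.8) and −12.6 in BS (pooled SD 14.4). The F test made no call in any list, 0 body or promoter CpGs lower in oxBS or BS and 0 in the pathway promoters, bodies or hyper-DMPs, genome-wide 0 as well. Fisher's exact test left 0 promoter hypo-DMPs in oxBS, 1 pathway hyper-DMP and 0 CpGs with BS below oxBS. With coverage minimums of 5 and 20 there was 1 pathway hyper-DMP each and 0 CpGs with BS below oxBS in shScr, and at 20 there were 2 with BS above. At 20 the *Fgfr2* body difference was −16.3 in oxBS and −18.5 in BS, its BS promoter difference −2.62, and body BS minus oxBS −1.19 for *Fgfr3* in shScr, −0.658 for *Fgfr2* and 1.55 for *Fgfr3* in shTet3. 

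Weighting by reads gave −2.32 and −17.6 for the *Fgfr1* promoter and body and −5.48 and −16.4 for those of *Fgfr2* in oxBS. In BS it gave −6.43 for the *Fgfr1* body, −4.34 and −17.9 for *Fgfr2* and 2.35 for the *Fgfr4* promoter, and BS minus oxBS in shScr was −7.61 for *Fgfr1* and 6.11 for *Fgfr2*. With TSSs of all transcripts, promoter hypo-DMPs were 20 in oxBS and 11 in BS and body hypo-DMPs 27 in oxBS. Promoter differences were then −2.83, −4.92 and −3.45 for *Fgfr1*, *Fgfr2* and *Fgfr3* in oxBS and −2.02 and −4.06 for the first 2 in BS, and −4.90 for the *Fgfr3* body. With promoters of −2 kb to +1 kb there were 6 promoter hypo-DMPs in oxBS and 7 in BS, with −1.64 and −3.65 for the *Fgfr1* and *Fgfr2* promoters and −16.7 for the *Fgfr2* body in oxBS, and −1.53 for the *Fgfr1* promoter and −18.0 for the *Fgfr2* body in BS. Chosen after seeing the data, the *Fgfr2* readthrough transcript gave 194 body hypo-DMPs and 2 hyper-DMPs in oxBS and 181 and 6 in BS, with *Fgfr2* body differences of −5.89 and −5.83 and a BS promoter difference of −0.628. Bodies from 2 kb on differed by −19.7 and −18.2 in oxBS and −22.0 and −17.3 in BS for *Fgfr1* and *Fgfr2*. The cause was not tested.

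Leaving out each library gave 23 to 48 body and 0 to 4 promoter hypo-DMPs in oxBS, 16 to 45 and 1 to 5 in BS with 0 to 2 hyper-DMPs, and 69 to 175 body and 8 to 23 promoter hypo-DMPs with 2 to 11 hyper-DMPs in the pathway list. CpGs with BS above oxBS in shScr numbered 0 to 8, those below 0 to 3, and in shTet3 0 to 1 lay below. Over all CpGs those in shScr numbered 1076 to 20055 above and 1098 to 11609 below. The *Fgfr1* body difference was −15.0 to −7.58 in oxBS and its BS promoter difference −1.64 to 0.498. BS minus oxBS ran from −0.0649 to 6.87 for *Fgfr1*, −3.57 to 2.62 for *Fgfr2*, −4.57 to 7.29 for *Fgfr3* and −2.91 to 3.91 for *Fgfr4* in shScr, and from −2.42 to 3.001 for *Fgfr2*, −6.52 to 4.05 for *Fgfr3* and −3.79 to 1.22 for *Fgfr4* in shTet3. 

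The replicate block left 44 body hypo-DMPs in oxBS and 37 in BS and 1 CpG with BS below oxBS in shScr, and 1 pathway hyper-DMP against 2 was its one change of over 1.5 times. A fall of over 10 points was not called at 33 tested body CpGs of the 4 genes, as their *q* value was not under 0.01. The part of coverage in this was not tested.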
